A study of Mus musculus with 3 samples.

Results

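Fibro-adipogenic progenitors (FAPs) of the mouse diaphragm that scored highest for *Agt*, *Ptx3*, *Has1* and *Cyp1b1* numbered 616 of the 5808 FAPs and of the 12275 cell barcodes in 3 single-cell RNA-Seq libraries. A FAP was a barcode with at least 1 UMI (unique molecular identifier, 1 captured mRNA molecule) of *Pdgfra*, at least 3 of *Dcn*, and none of *Ptprc*, *Pecam1* or *Pax7*. Each FAP was scored for 7 sets of 4 genes by the mean of their standardized log levels over all FAPs, and the cells were chosen by their highest set. They are called Agt-set cells below, and all remaining FAPs are called other FAPs. Because the 4 genes chose the cells, their levels and those of every other gene against the other FAPs are descriptions with no test.

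The study asked how obesity and thrombospondin 1, a secreted protein that can activate TGF-β, bear on the FAPs of the diaphragm. The 3 groups were male mice, with 1 library each. WT CD was C57BL/6J on a control diet, WT HFD was C57BL/6J on a high-fat diet with 45% of its energy from lipid, and KO HFD was a whole-body *Thbs1* knockout strain, B6.129S2-Thbs1tm1Hyn/J, on the same HFD. All mice ate chow until young adulthood and then their diet for 6 months. Cells of a pair of mice were pooled in each library without a mark for the mouse, so there is no replicate, no p-value is given, and every interval covers counting error only. In KO HFD the strain differs along with the *Thbs1* allele, and the library, the mice and the genotype cannot be told apart.

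FAPs are mesenchymal cells between the muscle fibres that make extracellular matrix, give rise to fibroblasts and adipocytes, and send signals to muscle stem cells and leukocytes. *Agt* encodes angiotensinogen, the secreted precursor of the angiotensins. *Ptx3* encodes pentraxin 3, a soluble pattern-recognition protein that takes part in organizing hyaluronan matrix, and *Has1* encodes a hyaluronan synthase of the plasma membrane. *Cyp1b1* encodes a cytochrome P450 that oxidizes steroids and aromatic compounds and is a target of the aryl hydrocarbon receptor.

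The stretches upstream of the start sites of the 4 genes are shown because these genes define the cells, and that of *Il6* because it was among the genes that stood highest in the cells beside them. Each is the 250 bases before the RefSeq start in GRCm38.p6, written 5′ to 3′ on the strand of the gene: *Agt* chr8:124569707-124569956 (minus), *Ptx3* chr3:66219637-66219886 (plus), *Has1* chr17:17855189-17855438 (minus), *Cyp1b1* chr17:79715062-79715311 (minus) and *Il6* chr5:30012864-30013113 (plus). Capitals mark matches, on either strand, to the AP-1 letters TGACTCA, the cAMP response element letters TGACGTCA, an NF-κB core GGNNTTTCC, a STAT site TTCCNGGAA, the aryl hydrocarbon receptor core GCGTG or the TATA letters TATAAA.

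Agt: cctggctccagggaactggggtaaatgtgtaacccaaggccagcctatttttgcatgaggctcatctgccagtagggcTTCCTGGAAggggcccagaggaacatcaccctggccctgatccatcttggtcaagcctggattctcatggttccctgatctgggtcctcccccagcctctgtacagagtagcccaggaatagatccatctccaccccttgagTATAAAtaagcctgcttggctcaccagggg

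Ptx3: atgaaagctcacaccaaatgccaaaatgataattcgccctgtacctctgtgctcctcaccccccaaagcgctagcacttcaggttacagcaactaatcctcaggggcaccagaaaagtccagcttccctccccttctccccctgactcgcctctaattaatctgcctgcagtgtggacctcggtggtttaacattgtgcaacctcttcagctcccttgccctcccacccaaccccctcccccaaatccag

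Has1: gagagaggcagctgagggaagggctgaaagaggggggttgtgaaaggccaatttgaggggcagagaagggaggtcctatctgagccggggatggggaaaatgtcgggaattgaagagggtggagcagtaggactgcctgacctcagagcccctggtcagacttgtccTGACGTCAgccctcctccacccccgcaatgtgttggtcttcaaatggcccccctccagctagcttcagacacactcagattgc

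Cyp1b1: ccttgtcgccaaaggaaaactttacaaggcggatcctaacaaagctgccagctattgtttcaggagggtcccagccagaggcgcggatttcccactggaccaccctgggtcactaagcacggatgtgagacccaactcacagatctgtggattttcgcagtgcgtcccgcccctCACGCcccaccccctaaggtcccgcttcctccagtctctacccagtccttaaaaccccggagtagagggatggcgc

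Il6: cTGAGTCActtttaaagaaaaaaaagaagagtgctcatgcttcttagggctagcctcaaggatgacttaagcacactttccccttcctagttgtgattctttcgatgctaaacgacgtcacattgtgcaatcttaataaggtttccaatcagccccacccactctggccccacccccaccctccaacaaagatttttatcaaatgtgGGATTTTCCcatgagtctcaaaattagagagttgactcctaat

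The *Agt* stretch held the TATA letters, from 30 to 25 bases before the start, and the STAT letters. Among all 32851 promoters of the table, 12.4% held the TATA letters and 0.913% the STAT letters. *Has1* held the cAMP response element letters, found in 1.55% of promoters. *Cyp1b1* held the GCGTG core as its reverse, CACGC, which 28.2% of promoters held on either strand. *Il6* held the AP-1 letters as their reverse, TGAGTCA (4.46% of promoters), and the NF-κB core (4.93%). The *Ptx3* stretch held none of the 6. No 1 motif was shared by the 4 genes of the set, and a match is a run of letters, not a shown site of binding.

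The Agt-set cells came to 157 of 1930 FAPs in WT CD (8.13%, 95% Clopper-Pearson interval 6.95 to 9.44), 181 of 1779 in WT HFD (10.2%, 8.81 to 11.7) and 278 of 2099 in KO HFD (13.2%, 11.8 to 14.8). The share follows the levels of the 4 genes that chose the cells, so it says where the cells came from and is not read as a change in a cell type. With the genes standardized within each library, the shares were 9.90%, 10.2% and 11.7%. The WT CD and KO HFD values then each lay outside the interval given above for their library. The cells carried 1585329, 1845322 and 2790668 UMIs in WT CD, WT HFD and KO HFD. Their median depth was 9606, 9930 and 9790 UMIs per cell, against 8483, 9136.5 and 8308 in the other FAPs. Their median share of mitochondrial UMIs was 2.67%, 2.35% and 2.53%, against 3.14%, 2.88% and 3.01% in the other FAPs. Barcodes shared between libraries numbered 7, 7 and 2, and none was an Agt-set cell.

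**Figure D1:**
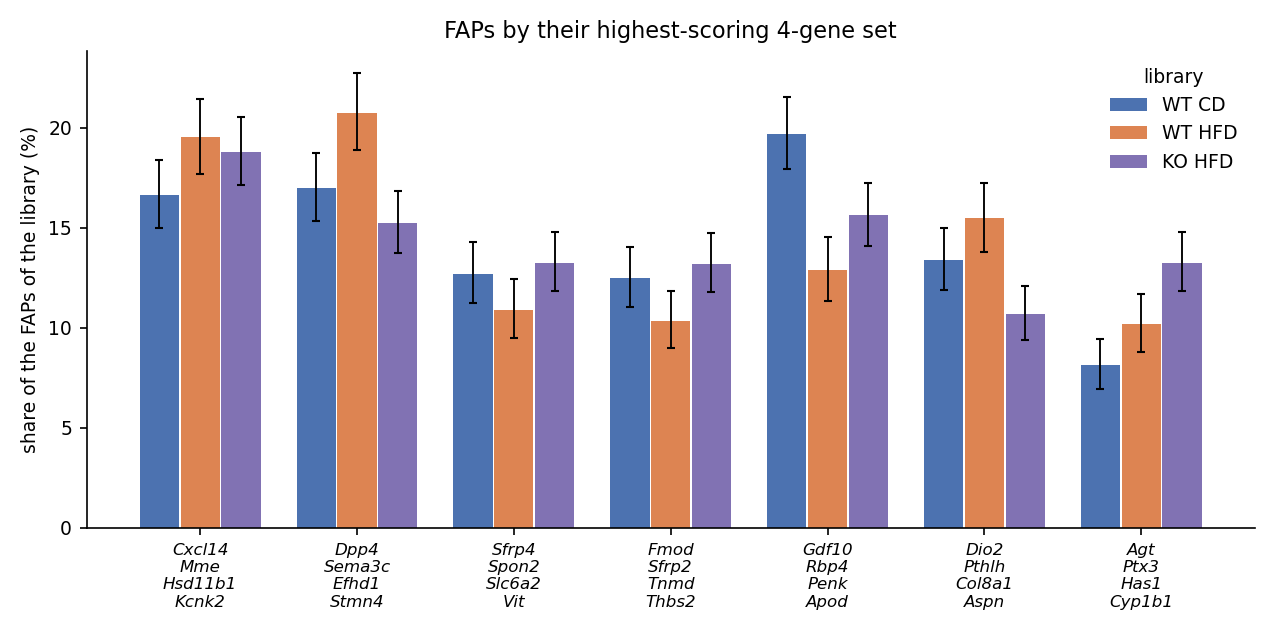
Share of the FAPs of each library (y axis, %) whose highest score was for each of the 7 sets of 4 genes (x axis), with bars for the libraries WT CD, WT HFD and KO HFD and exact 95% intervals for counting error. The set of *Agt*, *Ptx3*, *Has1* and *Cyp1b1*, at the right, held 8.13%, 10.2% and 13.2%.

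All 4 genes together were found in few cells. Of the 616 cells, 11 had no UMI of any of them, 179 had 1 gene, 292 had 2, 111 had 3 and 23 had all 4. *Cyp1b1* was detected in 74.0% of the cells, *Has1* in 60.9%, *Ptx3* in 36.2% and *Agt* in 21.8%. In the other FAPs the shares were 23.5%, 26.9%, 3.29% and 1.10%. With every cell thinned to 3000 UMIs, which left out 11 Agt-set cells and 68 other FAPs, *Cyp1b1* was found in 41.2% against 10.7%, *Has1* in 45.9% against 14.8%, *Ptx3* in 20.5% against 1.37% and *Agt* in 12.9% against 0.390%. Across all 556 B cells of the same libraries, with a median of 7751 UMIs against 9801 in the Agt-set cells, *Agt*, *Ptx3* and *Cyp1b1* had no UMI, which allows up to 0.540% of B cells to hold a UMI, and *Has1* was found in 0.180%. The label of the cells thus names the genes that placed them, and most cells carried only part of it.

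The cut between this set and the next was not sharp. The margin of the Agt-set score over the next highest had a median of 0.410, with quartiles of 0.146 and 0.962. It was under 0.1 in 102 cells (16.6%), and 114 other FAPs lay within 0.1 of joining. Cells just inside the cut held the 4 genes at 540 CPM in sum and those just outside at 490 CPM, with at least 2 of the genes in 36.3% and 37.7% of them. All 9 FAPs without a UMI of any of the 28 genes of the 7 sets fell to this set.

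*Agt* (ENSMUSG00000031980, chr8:124556534-124569706, minus strand) was at 94.0 CPM (UMIs of the gene per 1e+06 UMIs of those cells) in the Agt-set cells of WT CD, 75.3 in WT HFD and 63.8 in KO HFD, against 2.20, 0.659 and 1.83 in the other FAPs. *Ptx3* (ENSMUSG00000027832, chr3:66219910-66225805, plus strand) was at 139, 105 and 201 CPM, against 4.58, 6.86 and 7.13. *Has1* (ENSMUSG00000003665, chr17:17843323-17855205, minus strand) was at 385, 442 and 585 CPM, against 91.6, 113 and 105. *Cyp1b1* (ENSMUSG00000024087, chr17:79701537-79715061, minus strand) was at 197, 221 and 189 CPM, against 31.3, 42.9 and 49.3. Of all FAPs with a UMI of each gene, 134 of 191 for *Agt*, 223 of 394 for *Ptx3*, 375 of 1772 for *Has1* and 456 of 1676 for *Cyp1b1* were in the set, so the cells with *Has1* or *Cyp1b1* were mostly other FAPs. Outside the FAPs, *Has1* was detected in 35.4% of 127 mesothelial cells, at 81.1 CPM, and in 7.36% of 829 muscle stem cells, while *Agt* had no UMI in the mesothelial cells, which allows up to 2.36% of such cells to hold a UMI.

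Markers of other cell types were summed by list in the Agt-set cells, and some sums lay largely in single cells. The 11 mesothelial markers summed to 144, 135 and 144 CPM in WT CD, WT HFD and KO HFD, against 91.8, 86.3 and 66.1 in the other FAPs. Most of it was *Wt1*, which FAPs also express, at 136, 105 and 111 CPM, while *Msln*, the defining surface marker, was at 0, 0 and 6.09 CPM. The highest cell held 11, 58 and 53 UMIs of the list. The 12 leukocyte markers summed to 370, 20.6 and 30.8 CPM, against 74.9, 65.7 and 43.3 in the other FAPs, led by *Cd74*, with *Cd3e* at 0 and *Ptprc* at 0 by the gate. In WT CD 438 of these UMIs lay in 1 cell, and another held 12901 UMIs of *Igkc*, which is on no list. The 8 tenocyte markers summed to 216, 293 and 190 CPM against 1055, 1136 and 976 in the other FAPs, led by *Thbs4*, with *Kera* and *Chad* at 0. Of the 9 mural markers, which summed to 29.6, 19.0 and 64.5 CPM against 42.1, 30.7 and 43.1, with 74 UMIs in 1 KO HFD cell, *Acta2* was the most abundant, and *Rgs5* and *Higd1b* were at 0. The 6 cycling markers, led by *Pcna*, summed to 75.7, 141 and 89.2 CPM against 80.1, 81.3 and 108, with 120 UMIs in 1 WT HFD cell. The endothelial, muscle stem cell, Schwann, myofiber, adipocyte and erythroid lists lay between 0 and 167 CPM in every library, with at most 24 UMIs of a list in any cell. The part of these RNAs in the results below was not tested, except where values without single cells are given.

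Beside the 4 genes, those highest in the Agt-set cells over the other FAPs included a B-cell chemokine, transferrin, a complement component and *Il6*. Genes had to reach 50 CPM in 1 of the classes in every library, and 19 of 2704 genes (0.703%) were at least 2-fold higher than in the other FAPs in all 3 libraries. The same comparison placed 9 genes (0.333%) at least 2-fold lower. *Cxcl13*, a chemokine that attracts B cells, was at 869, 378 and 130 CPM in WT CD, WT HFD and KO HFD, against 34.1, 38.2 and 7.70 in the other FAPs, and it came from 35, 25 and 18 cells. Few cells therefore carried it, and 1 KO HFD cell held 57.1% of its UMIs there. *Trf*, transferrin, was at 300, 311 and 240 CPM against 69.2, 46.4 and 53.2. *C4b*, complement component 4, was at 396, 314 and 338 CPM against 87.2, 83.2 and 117. *Il6*, an acute-phase cytokine that FAPs release after muscle injury, was at 116, 87.8 and 172 CPM against 26.1, 31.6 and 39.9.

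*Sult1e1*, which inactivates estrogens by sulfation, was at 475, 144 and 96.8 CPM against 130, 35.3 and 35.8. *Apoe*, an apolipoprotein, was at 1236, 549 and 974 CPM against 369, 219 and 308. *Col6a5*, a chain of the beaded-filament collagen VI, was at 351, 433 and 648 CPM against 142, 102 and 213. For each of these genes the Agt-set cells stood above the other FAPs in all 3 libraries. The levels of *Cxcl13*, *Sult1e1* and *Apoe* themselves lay far apart between the libraries. Steadier were *Myc*, a growth regulator, at 270, 231 and 295 CPM against 93.7, 87.9 and 117, and *Fst*, the secreted myostatin antagonist follistatin, at 278, 302 and 336 CPM against 128, 132 and 164. *Il1r1*, the receptor of interleukin 1, was at 82.0, 89.4 and 104 CPM against 35.8, 36.9 and 43.2. The other named genes of this side were *Sned1*, *Tmem176a*, *Tmem176b*, *Plac8*, *Aoc3*, *Pim1*, *Steap4*, *Maf*, *Gm12840* and *Ifi204*, with smallest log2 ratios over the libraries between 0.99 and 1.46.

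Lowest in these cells against the other FAPs were *Thbs4* and 9 further genes. *Thbs4*, a thrombospondin of tendon, was at 207, 261 and 162 CPM against 974, 1019 and 859. *Angptl1*, a secreted angiopoietin-like protein, was at 349, 359 and 383 CPM against 902, 1011 and 1031. *Ccn2*, connective tissue growth factor, was at 176, 184 and 218 CPM against 407, 487 and 439. *Fibin*, *Ackr4*, *Ramp1*, *Pdgfrl*, *Tmem64*, *Fxyd6* and *Itgbl1* were lower as well, by log2 ratios no smaller in size than 0.96 in any library.

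The lists of genes by function give the same comparison with the other FAPs. The median log2 ratio over the libraries of all 2704 genes was −0.089. A gene could pass the level filter through the class where it was high, as *Il6* did, so these counts and medians describe the genes that passed and support nothing. Of the NF-κB and acute inflammation list, 14 of 24 genes passed the level filter, 14 had a mean above 0, the median was 0.64, and *Il6* and *Steap4* were past 2-fold in every library. Chemokines had a median of 0.81 over 8 genes, with 1 past the fold, *Cxcl13*. Interferon response genes had a median of 0.65 over 7 genes, with none past the fold, and *Ifi204* was the nearest at 0.99. Complement genes had a median of 0.22 over 11 genes with 1 past the fold, *C4b*, and *C3*, the central complement protein, stood at 3525, 3585 and 3546 CPM against 1594, 1652 and 1932. Immediate early genes, which also respond to tissue digestion, had a median of 0.40 over 21 genes, 17 of them above 0, with 1 past the fold, *Myc*. Metallothioneins and glucocorticoid targets had a median of 0.39 over 8 genes with none past the fold, and regenerative FAP signals one of 0.57 over 7 genes with *Il6* and *Fst* past it.

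On the other side, collagens had a median of −0.28 over 15 genes, with *Col6a5* the sole member above 0 and the sole member past the fold. TGF-β responsive matrix genes had a median of −0.30 over 17 genes, with *Ccn2* lower past the fold. Beyond the genes that chose the cells, 4 genes of the renin-angiotensin system passed the filter with a median of −0.035 and none past the fold. Angiotensin-converting enzyme, *Ace*, was at 216, 237 and 255 CPM against 237, 222 and 235. Hyaluronan matrix genes outside the rule had a median of 0.11 over 6 genes with none past the fold. *Tiparp*, the sole aryl hydrocarbon receptor target past the filter beside *Cyp1b1*, was at 211, 169 and 224 CPM against 87.1, 97.7 and 113. Heat shock chaperones (0.036 over 13 genes), matrix proteases and inhibitors (−0.027 over 10), adipogenic genes (0.18 over 4) and prostaglandin genes (−0.040 over 4) had none past the fold. Of the 4 steroid and sulfate genes, with a median of −0.040, *Sult1e1* was past it.

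**Figure D2:**
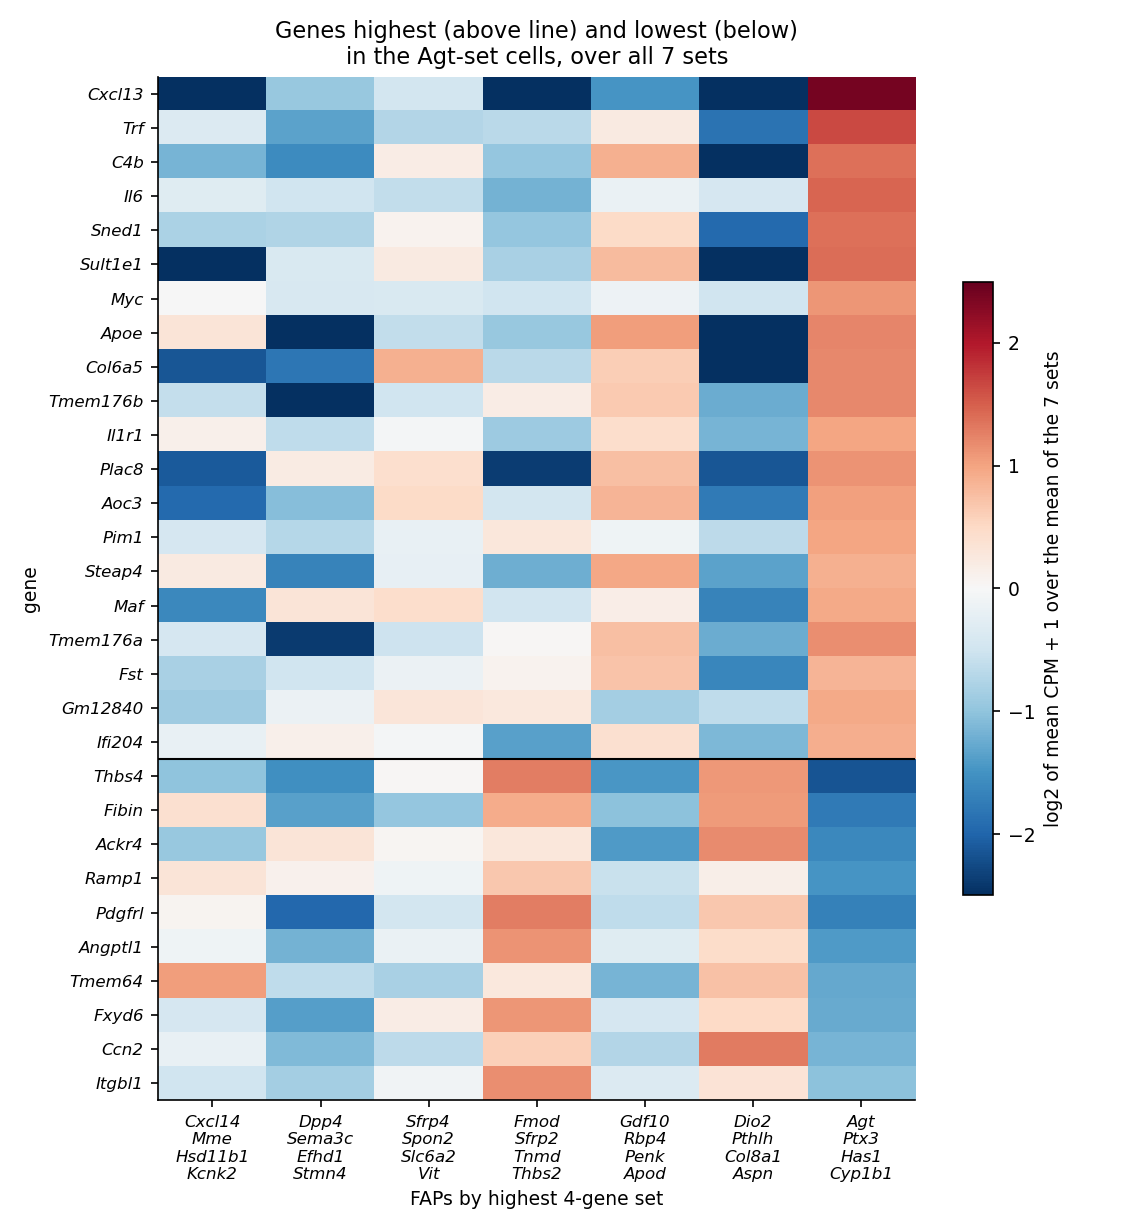
Colours give log2 of the mean CPM + 1 of a gene (rows) in FAPs of each of the 7 sets (columns) over the mean of the 7, with the mean taken over the 3 libraries and values beyond the ends of the scale drawn in its end colours. The Agt-set column, at the right, is the highest in 18 of the 19 genes past 2-fold, with *Steap4* higher in the *Gdf10* set, and the *Gdf10* column is next for 13 of the 19. These genes were picked as higher in the Agt-set cells, so the rank of that column largely follows from the choice and is a description.

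Among the 7 sets, the FAPs highest for *Gdf10*, *Rbp4*, *Penk* and *Apod* were the most like the Agt-set cells. Across 3303 genes, the pattern of log levels relative to the mean of the sets had a Pearson r of 0.36 with the *Gdf10* set and 0.21 with the *Dpp4* set. The r was −0.023 with the *Sfrp4* set, −0.31 with the *Cxcl14* set, −0.42 with the *Fmod* set and −0.72 with the *Dio2* set. These values come from the same 3 libraries, with no independence between genes. Levels relative to a shared mean tend to pull r below 0, so a negative value is not read as an opposite pattern. Among the scores that sorted the cells, which only describes the sorting, the second-highest was for the *Gdf10* set in 217 of the 616 cells (35.2%), for the *Sfrp4* set in 158 (25.6%) and for the *Dpp4* set in 102 (16.6%). Of the genes picked as higher in the Agt-set cells, *Cxcl13*, *Trf* and *Il6* separated these cells from their neighbours best. *Il6* was at 125 CPM as the mean of the libraries, against 40.1 in the *Gdf10* set, the next highest. *Apoe*, at 920 CPM, was nearly as high in the *Gdf10* set (818), and *Steap4* was higher there, at 188 CPM against 178.

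Cell by cell among the FAPs, the genes that followed the mean of the 4 most closely were *Socs3*, *Hk2*, *Myc*, *Tnfaip6*, *Mt2*, *C3*, *Gfpt2*, *Fosl2*, *Ptgs2* and *Ccnl1*. These were the 10 highest of 4936 genes by the smallest Pearson r over the 3 libraries, which ran from 0.33 for *Socs3*, a feedback inhibitor of cytokine signalling, to 0.27 for *Ccnl1*. Such r values are low and share the depth of each cell. *Socs3* was at 699, 580 and 686 CPM in the Agt-set cells against 275, 298 and 319 in the other FAPs, and *Mt2*, a metallothionein, at 1301, 1147 and 1359 against 679, 643 and 701.

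The Agt-set cells with *Agt* and those with *Ptx3* are described side by side here. In the Agt-set cells *Agt* was detected in 134 and *Ptx3* in 223, and 45 held both, near the 48.5 that the product of the shares gives. The choice of cells by a sum of the genes lowers such overlaps, and over all 5808 FAPs 49 cells held both against a product of 13.0. *Agt* and *Has1*, in contrast, met in 59 FAPs, near their product of 58.3, whereas *Ptx3* and *Has1* met in 227, above a product of 120. The split used below, made after the values were seen, takes the 89 cells with *Agt* and no *Ptx3* UMI and the 178 cells with *Ptx3* and no *Agt* UMI. The remaining cells were the 45 with both and 304 with neither. The split itself used UMI detection, and the median depth was 9095 UMIs in the cells with *Agt* and 10931.5 in those with *Ptx3*.

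Of 2525 genes at 50 CPM in either group in every library, 20 (0.792%) were at least 2-fold higher with *Agt* in all 3 libraries and 34 (1.35%) at least 2-fold higher with *Ptx3*. A gene could pass the level through the group where it was high. Genes that sorted the cells, *Gdf10*, *Penk*, *Dpp4* and *Sema3c* among them, are also included, so the counts are a description. With *Agt* went *Mylk*, myosin light chain kinase, at 132, 86.0 and 92.4 CPM in WT CD, WT HFD and KO HFD against 14.5, 6.00 and 14.4 in the cells with *Ptx3*. *Apoe* was at 2672, 1952 and 2205 CPM against 790, 110 and 622, and *C4b* at 786, 840 and 739 CPM against 351, 140 and 285. *Trf* was at 514, 850 and 959 CPM against 286, 68.0 and 102, with its smallest log2 ratio at 0.85, under the fold. All 4 genes thus stood above the cells with *Ptx3* in every library. *Col6a5*, *Bmper*, *Spon1*, *C7*, *C2* and *Vcam1* lay on the same side. The *Gdf10* set, one of the scores that sorted the cells, was second in 66.3% of these cells and in 26.4% of those with *Ptx3*, again a description of the sorting.

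With *Ptx3* went *Pi16*, a peptidase inhibitor known from adventitial fibroblasts of many tissues. It was at 2529, 2083 and 1987 CPM in the cells with *Ptx3* against 382, 357 and 567 in those with *Agt*, and *Anxa3* at 327, 310 and 164 CPM against 38.2, 29.8 and 22.3. Among the scores that sorted the cells, the *Dpp4* set was second in 28.1% of the cells with *Ptx3* and in 0% of the 89 with *Agt*, which is a description of the sorting. *Has1*, whose level the choice of the cells used, was detected in 67.4% against 24.7% of the cells, and its level was 373, 584 and 662 CPM against 170, 72.8 and 70.1. *Ugdh*, which makes the glucuronic acid donor for hyaluronan, was at 305, 486 and 536 CPM against 89.2, 69.5 and 175. *Ptgs2*, the inducible cyclooxygenase, was at 625, 418 and 450 CPM against 221, 86.0 and 66.9. *Il6*, at 92.0, 94.0 and 176 CPM against 136, 82.7 and 118, did not divide the same way in the 3 libraries, and *C3* lay within log2 0.27 to 0.62 of the other side. The 304 cells with neither gene resembled those with *Ptx3* more than those with *Agt* in *Pi16* (1589, 1799 and 1403 CPM) and *Mylk* (2.77, 3.25 and 13.8 CPM).

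**Figure D3:**
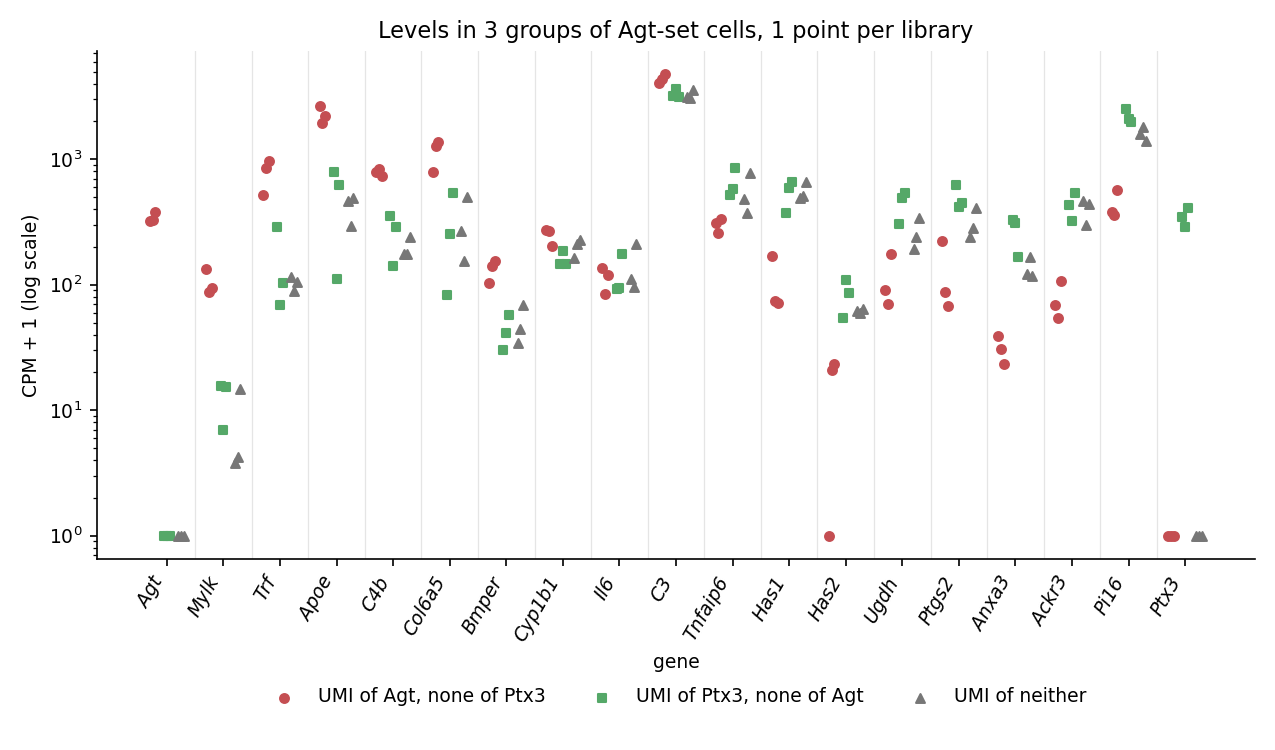
Level of each gene (y axis, CPM + 1, log scale) in Agt-set cells with a UMI of *Agt* and none of *Ptx3* (circles), with *Ptx3* and none of *Agt* (squares) and with neither (triangles), 1 point per library. *Mylk*, *Apoe* and *C4b* lie higher in the circles, *Has1*, *Ugdh*, *Anxa3* and *Pi16* higher in the squares, and *Il6* and *C3* lie close together, while *Agt* and *Ptx3* were fixed by the split.

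Between WT HFD and WT CD, the Agt-set cells of the HFD library held more mRNA of *Timp1* and of 7 collagens and less of 3 immediate early genes, of *Sult1e1* and of *Cxcl13*. Of 2884 genes at 50 CPM or more in 1 of the libraries, 128 (4.44%) were at least 1.5-fold higher in WT HFD with intervals that did not overlap, and 63 (2.18%) were lower. The median log2 ratio of all genes was 0.12, and with TMM factors, which bring it to 0.0040, the counts became 55 higher and 104 lower, so the number of genes on each side rests on the scaling. In the other FAPs the median was 0.085, with 15 genes higher and 21 lower of 2899. Of the 128 genes, 124 had the same direction in the other FAPs and 9 were past the fold there, and of the 63, 54 and 12. The share of all 2884 genes with the same direction in both classes is not given, so these counts are a description and show nothing particular to the called genes. The difference between the 2 classes of cells was not tested.

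*Timp1*, the tissue inhibitor of metalloproteinases, was at 24.6 CPM (95% Poisson interval 17.5 to 33.6) in WT CD, 206 (186 to 228) in WT HFD and 140 (127 to 155) in KO HFD. It came from 25, 70 and 90 cells, the highest of which held 88 of 381 UMIs in WT HFD. The log2 ratio of WT HFD over WT CD was 3.05 (2.59 to 3.58), and 2.91 with the highest cell of each library left out, against 1.01 in the other FAPs. *Angptl4*, an inhibitor of lipoprotein lipase that fatty acids induce, was at 29.6 and 88.3 CPM, a log2 ratio of 1.56 (1.10 to 2.08), against 2.05 in the other FAPs. *Igfbp5*, a binding protein of insulin-like growth factors, was at 279 and 559 CPM (log2 interval 0.84 to 1.17, against 0.26 in the other FAPs). *Pla1a*, a phospholipase, was at 92.1 and 208 CPM (1.17, 0.89 to 1.46, against 0.53). *Fbn1*, fibrillin 1 of the microfibrils, was at 485 and 962 CPM (0.99, 0.87 to 1.11, against 0.59). The genes given after *Timp1* were held by many cells, from 33 and 78 for *Angptl4* to 131 and 171 for *Fbn1*. *Gas7*, *Iqgap2*, *Sh3pxd2b*, *C1qtnf6*, *Ddx46*, *Sfrp4* and *Cep170* were also named on this side, with log2 ratios from 1.01 to 1.25. *Sfrp4*, one of the genes that sorted the cells, was at −0.19 with *Agt* left out of the set and at −0.025 with *Cyp1b1* left out.

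Of the 16 collagens, all passed the filter, all 16 were above 0, 7 were past the fold and none was lower, with a median log2 of 0.54 against 0.12 for all genes. The 16 include *Col8a1*, which helped to sort the cells as a gene of the *Dio2* set and so supports nothing here. *Col3a1*, of the interstitial fibrils, was at 1708 CPM in WT CD (1644 to 1773), 3102 in WT HFD (3023 to 3184) and 2514 in KO HFD (2456 to 2574), and *Col4a1*, of basement membranes, at 354 (325 to 384), 684 (647 to 723) and 568 (540 to 597). With TMM factors 6 of 16 were past the fold, 15 above 0 and the median was 0.43. In the other FAPs the collagens had a median of 0.31, with none past the fold and 14 of 16 above 0. Those cells began higher, with *Col3a1* at 2784 CPM in WT CD. Matrix proteases and inhibitors had a median of 0.40 over 13 genes with 4 higher, among them *Timp1*, *Adamts5* at 241 and 429 CPM and *Mmp14* at 105 and 173 CPM, and none lower. TGF-β responsive matrix genes had a median of 0.34 over 18 genes with 2 higher and none lower, and with TMM factors 1 higher and 2 lower. That list also holds a gene that sorted the cells.

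Of 22 immediate early genes past the filter, 2 were above 0, 3 were past the fold lower and none higher, with a median of −0.35, and *Nr4a2*, an orphan nuclear receptor of that class, was at 267 CPM in WT CD, 126 in WT HFD and 205 in KO HFD. Heat shock chaperones had 2 of 13 above 0, none past the fold and a median of −0.31, whereas with TMM factors 5 were lower and the median was −0.42. In the other FAPs the medians were −0.15, with 0 of 21 immediate early genes past the fold, and −0.25, with 4 of 13 chaperones lower. These genes answer to digestion and handling as well as to signals in tissue, and the part of each was not tested. *Sult1e1* was at 475 CPM (442 to 510) in WT CD and 144 (127 to 162) in WT HFD, in 69 and 40 cells, a log2 ratio of −1.72 (−1.93 to −1.52) against −1.88 in the other FAPs. *Cxcl13* was at 869 and 378 CPM, −1.20 (−1.33 to −1.07), against 0.16 in the other FAPs. *Hp*, haptoglobin, was at 94.6 and 26 CPM (−1.85, −2.36 to −1.39), against −0.23. *Apoe*, at 1236 and 549 CPM (−1.17, −1.28 to −1.06), stood lower in the other FAPs too, by −0.75, as did *Igfbp3*, at 184 and 62.3 CPM (−1.55) and −1.11.

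Several of the largest ratios rested on single cells. In WT CD, 1 cell held 12901 of the 12968 UMIs of *Igkc*, 3032 of the 3050 of *Ighm*, 1475 of the 1478 of *Jchain* and all 230 of *Iglc1*, the immunoglobulin genes of a plasma cell. Another held 485 of 491 UMIs of *Retnla*, 216 of 318 of *Cd74*, 121 of 129 of *Lyz2* and 73 of 100 of *H2-Aa*, genes of antigen-presenting myeloid cells. Both passed the FAP gate and neither was called a doublet. *H2-Eb1*, *H2-Ab1* and *Cxcl2* complete the genes named as lower, and 69 of 93, 53 of 81 and 56 of 84 of their WT CD UMIs lay in 1 cell of 12276 UMIs. In WT HFD 1 cell held 182 of 194 UMIs of *Fabp4* and 67 of 98 of *Stmn1*. With the highest cell of every gene and library left out, 121 genes were higher and 48 lower in WT HFD, and *Fabp4* was at −0.33 instead of 3.26.

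**Figure D4:**
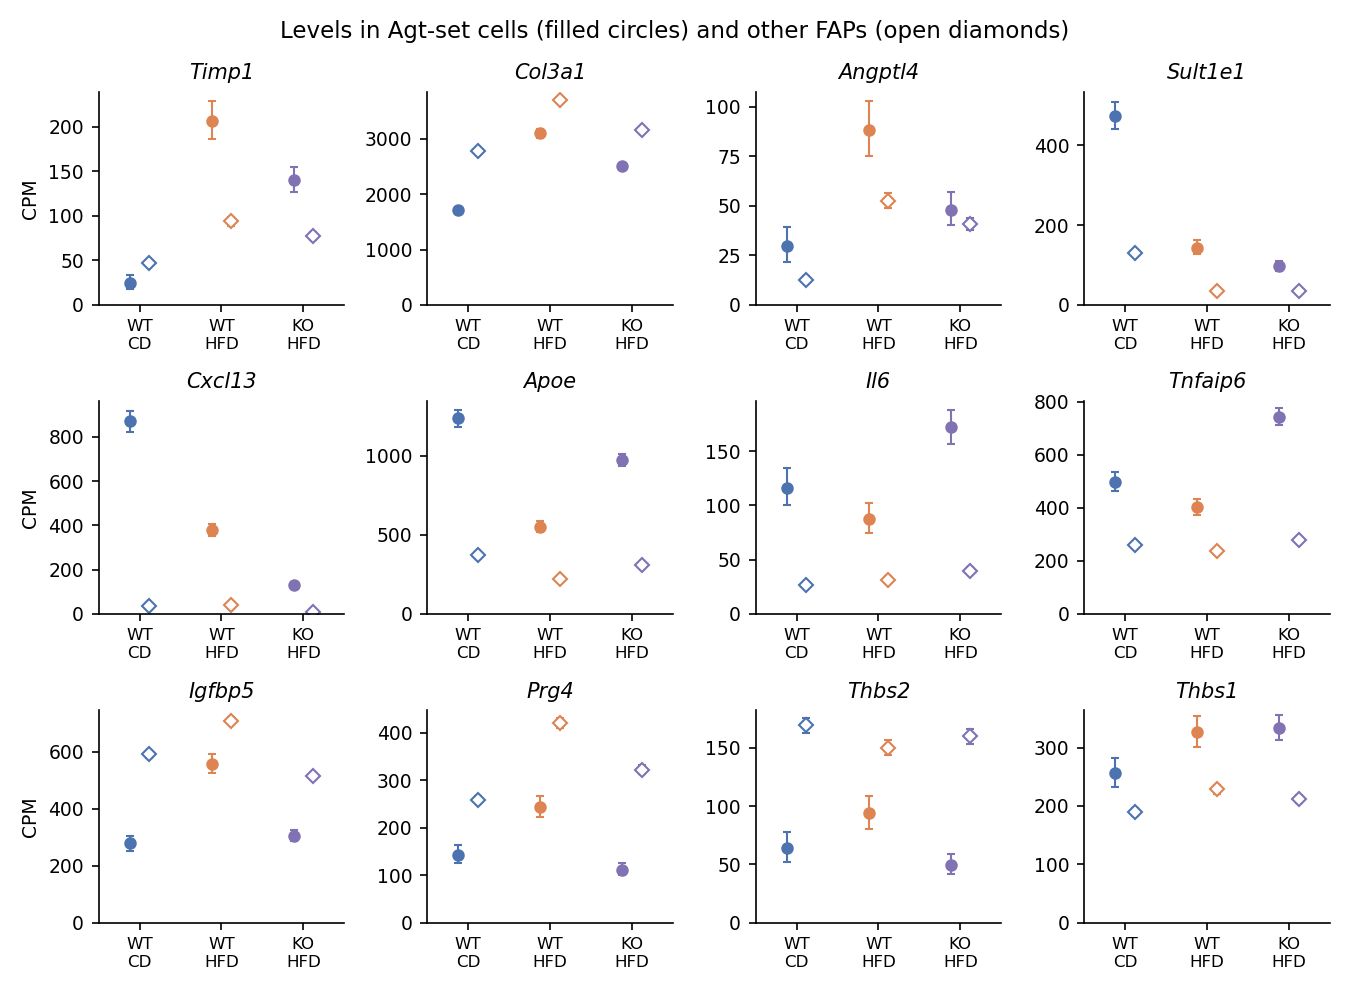
Level (y axis, CPM) of 12 genes in the 3 libraries (x axis), in Agt-set cells (filled circles) and other FAPs (open diamonds), with exact 95% Poisson intervals for counting error. *Timp1* is at 24.6, 206 and 140 CPM and *Sult1e1* at 475, 144 and 96.8 CPM in the Agt-set cells of WT CD, WT HFD and KO HFD, while *Il6* and *Tnfaip6* are highest in KO HFD.

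*Thbs1* was at 256 CPM (232 to 282) in the Agt-set cells of WT CD, 326 (301 to 353) in WT HFD and 334 (313 to 356) in KO HFD, against 190, 228 and 212 in the other FAPs. The libraries read the 3′ end of transcripts, so a count in KO HFD does not check the knockout.

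Between KO HFD and WT HFD, the Agt-set cells of the KO HFD library held more mRNA of *Il6*, *Tnfaip6*, *Apoe* and *Egr2* and less of *Cxcl13*, *Prg4*, *Thbs2* and *Igfbp5*. Of 2886 genes, 29 (1.0%) were at least 1.5-fold higher in KO HFD and 36 (1.25%) lower, and the median log2 ratio was −0.023. With TMM factors 40 were higher and 26 lower, and by the mean over cells 38 and 23, and with *Has1* left out of the set 62 and 37, so which side held more genes rests on the scaling and on the choice of cells. In the other FAPs 13 genes were higher and 4 lower of 2913. Of the 29 and 36 genes, 27 and 33 had the same direction there, and 2 and 2 were past the fold. Here too the share over all genes is not given, so these counts are a description. With each gene's highest cell left out, 36 were higher and 22 lower.

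*Il6* was at 87.8 CPM (74.8 to 102) in WT HFD and 172 (157 to 188) in KO HFD, in 43 and 95 cells, a log2 ratio of 0.97 (0.71 to 1.24) against 0.34 in the other FAPs. *Tnfaip6*, which links heavy chains to hyaluronan, was at 403 (375 to 433) and 744 CPM (712 to 776), in 136 and 235 cells, 0.88 (0.76 to 1.01) against 0.24. *Apoe* was at 549 and 974 CPM (0.83, 0.72 to 0.93, against 0.49). *Egr2*, an immediate early factor, was at 26 and 61.3 CPM (1.23, 0.77 to 1.73, against 0.44). *Slc6a2*, *Alkal2*, *Nabp1*, *F830016B08Rik*, *Gdf10*, *Cxcl14* and *Ptx3* complete this side, with log2 ratios from 0.76 to 1.27, and *Ptx3*, *Slc6a2*, *Cxcl14* and *Gdf10* were among the genes that sorted the cells. Cells with *Ptx3* and no *Agt* made up 35.3% of the Agt-set cells in KO HFD, 24.3% in WT HFD and 22.9% in WT CD. Within them *Tnfaip6* was at 514, 574 and 855 CPM in WT CD, WT HFD and KO HFD, and in the cells with neither gene at 479, 373 and 779 CPM. In the cells with *Agt* and no *Ptx3* it was at 310, 258 and 331 CPM. *Il6* was highest in KO HFD in the cells with *Ptx3* (92.0, 94.0 and 176 CPM) and in those with neither (111, 94.3 and 209 CPM), but not in those with *Agt* (136, 82.7 and 118 CPM). In the 18, 11 and 16 cells with both genes, *Il6* was at 159, 24.98 and 28.6 CPM and *Tnfaip6* at 752, 291 and 576 CPM. Both were highest in WT CD there, with KO HFD above WT HFD, and *Il6* rested on 43 UMIs.

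*Cxcl13* was at 378 CPM in 25 cells of WT HFD and 130 in 18 of KO HFD, a log2 ratio of −1.54 (−1.72 to −1.35) against −2.31 in the other FAPs. *Prg4*, the lubricating proteoglycan, was at 244 (222 to 268) and 112 CPM (99.7 to 125), in 56 and 75 cells, −1.13 (−1.34 to −0.92) against −0.39. *Thbs2*, the paralog of *Thbs1* and itself a gene of another of the 7 sets, was at 93.8 (80.3 to 109) and 49.8 CPM (41.9 to 58.8), −0.91 (−1.25 to −0.58) against 0.09. *Igfbp5* was at 559 and 306 CPM (−0.87, against −0.46) and *Angptl4* at 88.3 and 48.0 CPM (−0.88, −1.22 to −0.54, against −0.37). *Igfbp3*, *Mmp3*, *Dkk2* and *Ide* were lower too, by −0.86 to −1.29. *Fabp4* and *Stmn1* had the lowest ratios, with most of their WT HFD UMIs in the single cell described above. Without the highest cells *Fabp4* was at 0.12, and *Stmn1* at −1.15 instead of −2.60. *Eif3j2* was higher (12.5 and 71.3 CPM) and *Eif3j1* lower (107 and 22.2 CPM) in KO HFD. These are near-identical copies whose reads may be shared between them, so both values are uncertain.

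By lists, immediate early genes had 22 of 23 above 0 in KO HFD over WT HFD, 3 past the fold, none lower and a median of 0.32 against −0.023 for all genes. Heat shock chaperones had 12 of 13 above 0 and a median of 0.26 with none past the fold. NF-κB and acute inflammation genes had 13 of 15 above 0, 1 higher and a median of 0.18. Hyaluronan matrix genes had 5 of 9 above 0, 3 higher, none lower and a median of 0.13. The 3 were *Tnfaip6*, *Ugdh* at 271 and 410 CPM, and *Ptx3*. *Ptx3* and *Has1* chose the cells and so support nothing here, but both enter the 9 genes and their median. Collagens had 2 of 16 above 0, 1 lower and a median of −0.18. This list, through *Col8a1*, and the TGF-β responsive list each hold a gene that sorted the cells. TGF-β responsive matrix genes had 2 of 18 lower, none higher and a median of −0.10, and matrix proteases and inhibitors 2 of 13 lower, none higher and a median of −0.098. With each gene's highest cell left out, 0 of 12 of the proteases and inhibitors were lower. Of 8 chemokines 2 were higher and 2 lower, with a median of −0.032, and 1 and 1 without the highest cells. In the other FAPs the immediate early median was 0.27, that of the chaperones 0.29, that of the NF-κB list 0.098, that of hyaluronan matrix −0.15 and that of the collagens −0.15. There 1 of 21 immediate early genes and 0 of 13 chaperones were past the fold. The 2 comparisons share WT HFD as 1 library, on opposite sides of the ratio, so opposite signs in them are not independent results.

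**Figure D5:**
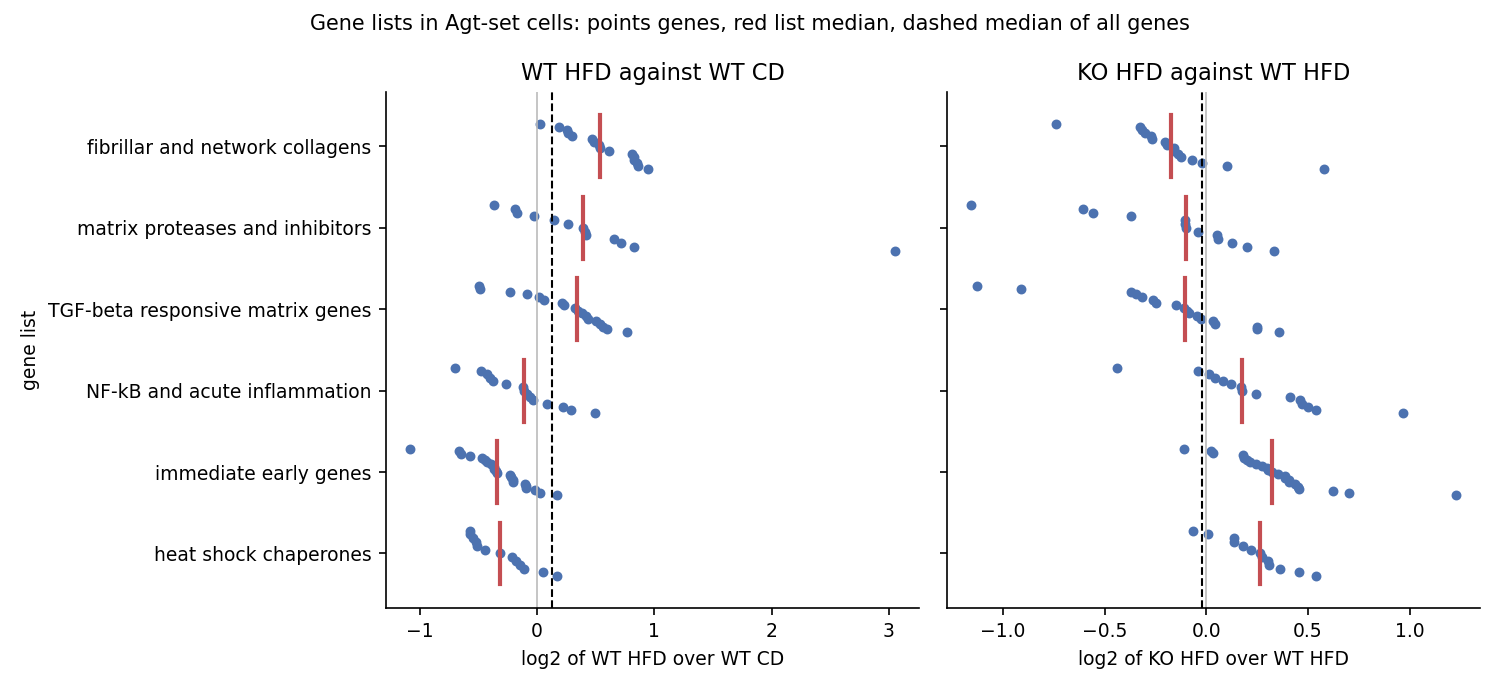
Each point is a listed gene at 50 CPM or more, placed by its log2 ratio (x axis) in Agt-set cells for WT HFD over WT CD (left) and KO HFD over WT HFD (right). Red bars give the list medians and dashed lines the median of all genes (0.12 and −0.023), and the collagens lie at 0.54 and −0.18, the immediate early genes at −0.35 and 0.32. Both ratios hold WT HFD, on opposite sides, so opposite signs are not independent results.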

How the data were processed

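Mononuclear cells of digested costal diaphragm, sorted as living, were captured with the 10x Genomics 3′ chemistry in 3 libraries. The authors mapped the reads to GRCm38 and counted UMIs with Cell Ranger (6.1.1 in the submitters' processing notes), and deposited whole-number UMI counts for 32285 genes in 4132, 3774 and 4369 barcodes of WT CD, WT HFD and KO HFD, with 34312860, 31967976 and 36478779 UMIs. No annotation of cells was used, so the classes were rebuilt. The members and lists were chosen with earlier results of these data known.

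The software was numpy 2.4.6, pandas 2.3.3 and scipy 1.17.1 under Python 3.11.15. For the scores, counts per 10000 were log-transformed and standardized per gene over all FAPs. UMIs were added up per gene, class and library and given as CPM with exact Poisson intervals, and shares with exact Clopper-Pearson intervals. Ratios had 0.5 UMI added to each sum, and their intervals are exact conditional ones. A share of 0 allows 3 cells of the total. Doublets were called with Scrublet in scanpy 1.11.5 (expected rate 0.06) and kept. It called 0, 0 and 1 Agt-set cells. TMM factors came from edgeR 4.0.16 in R 4.3.3. With 1 library per group no test was possible. Scripts were tested on simulated data.

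Named genes against other FAPs were the 20 highest and 10 lowest by the smallest ratio over the libraries. Each comparison of libraries gave the 12 highest and 12 lowest past the level filter with intervals that did not overlap. The 10 most alike and up to 4 per list were named too. Genes named for the split by *Agt* and *Ptx3*, and those named again without their highest cell, were chosen after their values were seen. Alternatives were doublets, cell quality, a stricter gate, scoring, thinning, the margin, each set gene left out, the level filter, TMM and the mean over cells. Positions are of GENCODE M21, and promoters of RefSeq, where all 5 genes shown matched by symbol.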

Additional observations from a re-analysis of the deposited data

Results flagged for a closer look

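*Lyz2* and *Cxcl2* went opposite ways in the Agt-set cells and the other FAPs between WT HFD and WT CD. The log2 ratio of *Lyz2*, lysozyme of myeloid cells, was −3.71 in the Agt-set cells and 0.81 in the other FAPs, and that of *Cxcl2*, a neutrophil chemokine, was −1.95 and 0.60. With 1 library per group the difference was not tested. A single WT CD cell held 121 of the 129 *Lyz2* UMIs and 56 of the 84 *Cxcl2* UMIs of the Agt-set cells there, and without the highest cell of each library the ratios were 0.086 and −0.69.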

How the results depend on the processing

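Of 1404 values of 78 gene results under 18 alternatives, 1384 kept their direction and 20 reversed. Among those that kept it, 442 were counted as moved in size and 942 as the same. The 2 alternatives that change only the level filter leave every ratio as it was. Their values could not reverse, and they count among those that kept their direction. The cause of a move or a reversal was not tested, except where leaving out single cells shows it. The *Lyz2* log2 ratio of WT HFD over WT CD became 0.011 with cells scored at 3000 UMIs, 0.13 with a margin of 0.25, 0.23 with at least 2 of the 4 genes, 0.31 without *Agt* in the set, 0.85 without *Ptx3*, 0.086 without each gene's highest cell, 0.18 without 2 Agt-set cells of 50 or more leukocyte UMIs, and 0.21 with at least 1 of the 4 genes. *Fabp4* became −0.97 with the margin, −1.38 with at least 2 genes, −0.55 without *Cyp1b1* and −0.33 without the highest cells, and over KO HFD against WT HFD 0.86, 1.47, 0.90 and 0.12. *Sfrp4* became −0.19 without *Agt* and −0.025 without *Cyp1b1*, *H2-Eb1* 0.37 without *Ptx3*, and *Stmn1* in KO HFD over WT HFD 1.87 at 3000 UMIs. The last 3 kinds of alternative (highest cells, leukocyte UMIs, at least 1 gene) were chosen after seeing the data.

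The order of the shares, WT CD below WT HFD below KO HFD, held under all 13 alternatives that change the cells. All of them drew on the same libraries and on genes that chose the cells, so the kept order is a description of the rule. With scores standardized per library, WT HFD (10.2%) lay 0.28 points above WT CD. The shares became 9.90% in WT CD and 11.7% in KO HFD with scores standardized per library, 4.72%, 6.52% and 9.05% with the margin, 4.97%, 6.91% and 9.86% with at least 2 genes, 11.97% in WT HFD and 15.3% in KO HFD without *Agt*, and 11.8% in WT HFD without *Ptx3*.

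Counts of genes past the fold moved by more than 1.5 times as follows. Against the other FAPs (19 higher and 9 lower), 4 were lower at 3000 UMIs, 30 were higher and 17 lower with the margin, 12 higher without *Agt*, 29 and 17 with a filter of 20 CPM, and 96 and 97 with no filter beyond 10 UMIs. For WT HFD against WT CD (128 and 63), 79 were higher at 3000 UMIs, 39 lower without *Agt*, 213 and 97 at 20 CPM, 271 and 137 with no filter, and 55 and 104 with TMM factors. For KO HFD against WT HFD (29 and 36), 45 were higher with at least 2 genes, 62 higher without *Has1*, 23 lower without *Agt*, 64 and 68 at 20 CPM, 96 and 136 with no filter, 23 lower by the mean over cells, and 22 lower without the highest cells.

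No paired analysis was possible because each group was 1 library, and for the same reason no replicate was left out. The smaller library limits the precision of a ratio, which is WT CD with 1585329 UMIs for the diet and WT HFD with 1845322 for the genotype.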
